A study of Homo sapiens with 4 samples.

Results

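The cells called G2M, the phase around mitosis, were compared between estradiol and vehicle, gene by gene and, for DNA repair, position by position. They are the cells whose phase in the deposited cell annotation is G2M, 2901 of 8307 cells in all, with 1674 of the 4940 vehicle cells and 1227 of the 3367 estradiol cells. All were MDA MB 134VI (MM134) cells, an established line of lobular breast carcinoma with the genotype WT. Both groups had been kept without hormone, in medium free of phenol red with charcoal-stripped serum, and then received either vehicle (0.01% ethanol) or estradiol at 100 nM for 24 h. Each group gave 1 targeted mRNA library on a pan-cancer panel and 1 Haircut library, in which synthetic DNA hairpins with a lesion are offered to the repair enzymes of each cell. As each treatment has 1 library per assay, the treatments cannot be tested against each other. Every interval below is a 95% interval for counting error alone and leaves out differences from cell to cell and culture to culture.

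G2 is the gap between DNA synthesis and mitosis. Entry into mitosis is driven by cyclin B with the kinase CDK1, which WEE1 and PKMYT1 hold inactive and CDC25 phosphatases release. Exit follows when the anaphase promoting complex, with CDC20, marks cyclin B and securin for destruction. In breast cells with the estrogen receptor, estradiol is best known for acting earlier, through MYC and cyclin D1, to carry cells from G1 into S phase.

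G2M cells made up 33.9% of the vehicle library (exact binomial interval 32.6 to 35.2) and 36.4% of the estradiol library (34.8 to 38.1). Phase calls of this kind rest on transcripts of S-phase and G2/M genes, so the levels of such genes here are partly set by the call. The sources used here do not name the genes that the authors took. Known G2/M genes stood 9.35 to 22.1 times higher than in G1 cells of the same library. The median G2M cell held 3155 panel UMIs (unique molecular identifiers, or counted molecules) with vehicle and 3131 with estradiol, 1536 and 1810 in the rows of all genes, and 1107 and 1465 in the repair rows. The median mitochondrial share was 7.32% and 7.51%. All 6 luminal markers were detected (summed to 4294 and 5443 UMIs per 1000000, or CPM), all 6 immune or endothelial markers were at 0 in both libraries, and so were 4 of the 5 basal or myoepithelial markers, KRT5, KRT14, TP63 and ACTA2. The fifth, MYH11, had 29 and 13 UMIs, 5.09 and 2.0 times its G1 level in the same library. The mesenchymal markers, with PDGFRB at 0, summed to 195 and 154 CPM. The libraries shared 4 cell barcodes, 0 of them among G2M cells.

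A gene's level is its UMIs per 1000000 UMIs (CPM) over the G2M cells of a library, taken separately in the panel rows and in the rows of all genes, called all-gene rows. A gene was measured with at least 100 UMIs over both libraries and past the mark when its level differed at least 1.5-fold. Of 850 measured panel genes 25 were past the mark upward with estradiol (2.94%) and 84 downward (9.88%). Of 6757 measured all-gene genes 190 were past it upward (2.81%) and 319 downward (4.72%). The median log2 ratio of estradiol to vehicle was -0.11 in the panel and -0.03 in the all-gene rows. Levels are shares of a total, and CCND1 alone took 7.34% of the panel UMIs with vehicle and 11.9% with estradiol. Under median-of-ratios scaling, which puts both medians at 0, the panel split was 41 upward and 58 downward, so that 41.4% and not 22.9% of the genes past the mark were higher. The panel and all-gene rows share their cells. Of 530 genes measured in both, 437 pointed the same way; of the 36 of these that were past the mark in the panel, 36 did.

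**Figure D1:**
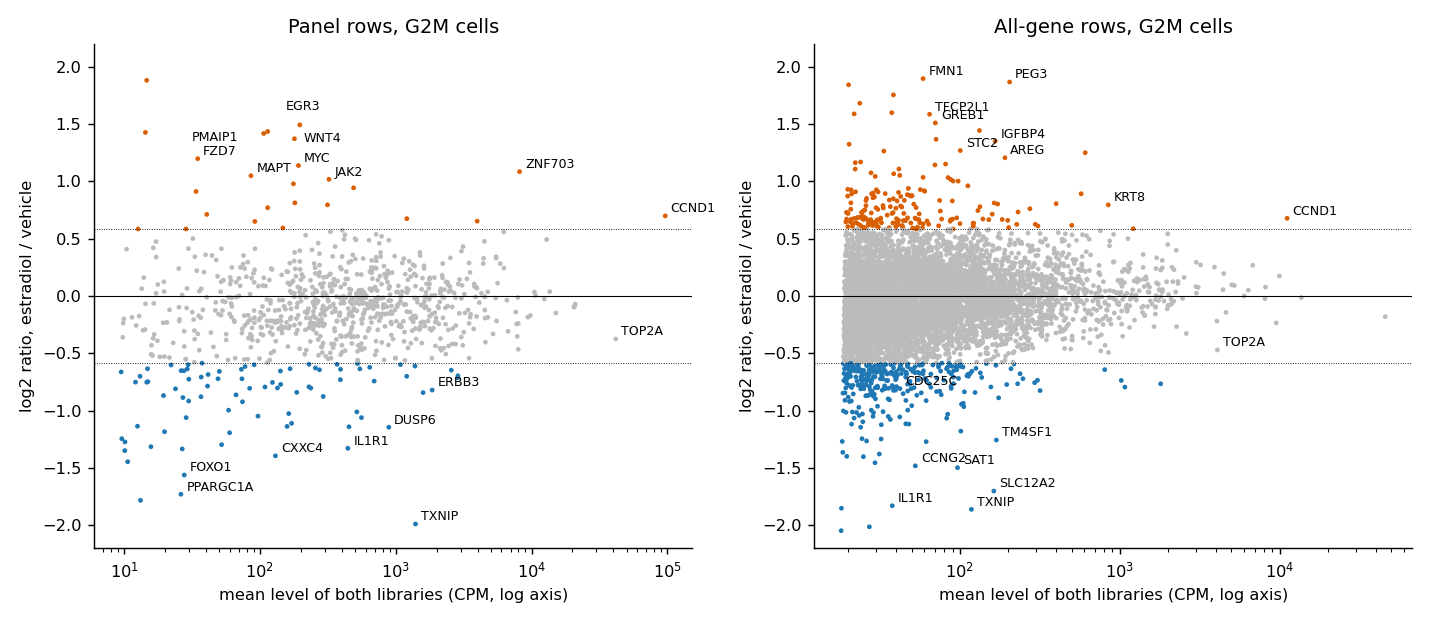
Each point is a gene measured in G2M cells, with its mean level over both libraries (CPM, log axis) against the log2 ratio of estradiol to vehicle, for panel rows and all-gene rows. Dotted lines mark 1.5-fold, orange points are higher and blue points lower with estradiol, and 84 of the panel points are blue against 25 in orange.

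Genes that estradiol is known to induce were higher in G2M cells. In the panel 9 of the 14 measured members of the estrogen-induced list were past the mark upward, and the median log2 ratio was 0.88. In the all-gene rows 22 of 36 were, with a median of 0.70. Of all measured genes 2.94% were past the mark upward in the panel and 2.81% in the all-gene rows. In both blocks FOS was the 1 member past the mark downward (-0.74 and -0.72); it lies outside the naming rule and was named after its value was seen. The list was chosen with results of these cells known and is no independent evidence of its direction.

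Among induced transcription factors, EGR3, an early-response gene, had 609 panel UMIs with vehicle and 1219 with estradiol. These are 103 and 290.4 CPM, 2.82-fold higher (2.55 to 3.11). MYC, which drives growth and cell-cycle entry, stood at 120.1 CPM with vehicle and 264 with estradiol, 2.2-fold higher (2.0 to 2.42). In G1 cells the log2 ratio of MYC was 0.35 and in S cells 0.56, against 1.14 in G2M cells. ZNF703, a luminal regulator, had 30850 and 46554 UMIs and was 2.12-fold higher (2.09 to 2.15). MYB, a further regulator of proliferation, was 1.76-fold higher (1.60 to 1.93). EGR3, MYC, ZNF703 and MYB were higher in each of the 4 large clusters of G2M cells described further on.

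CCND1, which encodes cyclin D1, had 433593 and 500636 panel UMIs, or 73419 and 119258 CPM, and was 1.62-fold higher (1.62 to 1.63). Its log2 ratio was 0.70 in G2M cells, 0.35 in G1 cells and 0.44 in S cells. The vehicle level was lowest in G2M, at 7.34% of panel UMIs against 14.7% in G1 and 10.5% in S cells. Cell by cell, the median share of CCND1 was 6.15% with vehicle and 11.5% with estradiol, and the middle 50% of cells overlapped slightly. For ZNF703 the medians were 0.468% and 1.00%. Here the 25th percentile with estradiol, 0.741%, lay above the 75th with vehicle, 0.653%, so the difference was not carried by a few cells.

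Secreted ligands, receptors and kinases followed. WNT4, a Wnt ligand of the mammary gland, stood at 100.1 CPM with vehicle and 259 with estradiol, 2.59-fold higher (2.34 to 2.87). FZD7, a Wnt receptor, was 2.3-fold higher (1.83 to 2.89) with 125 and 204 UMIs. The receptor tyrosine kinase RET stood at 335 CPM with vehicle and 645 with estradiol, 1.92-fold higher (1.82 to 2.04). JAK2, a kinase of cytokine receptors, was 2.03-fold higher (1.89 to 2.18), and RASGRP1, an activator of RAS, 2.71-fold higher (2.38 to 3.08). FGFR3, with only 46 and 88 UMIs, was 2.69-fold higher (1.86 to 3.93). These were higher while ESR1, the estrogen receptor itself, stood at 2669 CPM with vehicle and 2718 with estradiol, a log2 ratio of 0.03 (-0.01 to 0.06). PGR, the progesterone receptor, was scarce, with 37 and 97 UMIs, and 3.69-fold higher (2.50 to 5.54).

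Of the 10 highest panel ratios, PMAIP1 and BID encode pro-apoptotic proteins of the BCL2 family. PMAIP1 stood at 58.1 CPM with vehicle and 155 with estradiol, 2.67-fold higher (2.34 to 3.06), and BID was 1.97-fold higher (1.79 to 2.18). MAPT, the microtubule protein tau, was 2.07-fold higher (1.8 to 2.39), with log2 ratios of 0.76 in G1 and 0.13 in S cells.

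The all-gene rows gave further genes. FMN1, an actin-assembling formin, stood at 24.9 CPM with vehicle and 92.7 with estradiol, 3.73-fold higher (2.84 to 4.94). PEG3, an imprinted zinc-finger gene, had 251 and 776 UMIs and was 3.65-fold higher (3.16 to 4.23). GREB1, a cofactor of the estrogen receptor, was 2.85-fold higher (2.26 to 3.62). The secreted proteins IGFBP4, STC2 and AREG were 2.55-fold, 2.41-fold and 2.31-fold higher. STC2 had 0.68 in G1 cells and 0.15 in S cells on the log2 scale, against 1.27 in G2M cells. TFCP2L1, C6orf141 and SGK3 also had log2 ratios of 1.59, 1.45 and 1.37. TFF1, a classic estrogen target, had 32 and 87 UMIs and was 3.21-fold higher (2.12 to 4.98). These transcripts were all higher with estradiol.

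The estrogen-repressed list lay lower. In the panel 15 of 19 measured members were past the mark downward and 0 upward, with a median of -0.82; in the all-gene rows 9 of 18 were, with a median of -0.65. Of all measured genes 9.88% were past the mark downward in the panel and 4.72% in the all-gene rows. Under median-of-ratios scaling 14 of the 19 panel members of the list were past it downward. The estrogen-repressed list too was chosen with results of these cells known. TXNIP, which binds thioredoxin and restrains glucose uptake, had the lowest panel ratio, with 13196 UMIs with vehicle and 2362 with estradiol. It was 3.97-fold lower (3.80 to 4.15), and 3.64-fold lower (2.98 to 4.46) in the all-gene rows. The median cell gave 0.178% of its panel UMIs to TXNIP with vehicle and 0.0249% with estradiol.

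Other regulators in this group were scarcer. PPARGC1A, a coactivator of mitochondrial biogenesis, was 3.32-fold lower (2.44 to 4.58), and FOXO1, a transcription factor held back by insulin signalling, 2.95-fold lower (2.21 to 3.99). IL1R1, the interleukin 1 receptor, stood at 636 CPM with vehicle and 253 with estradiol, 2.51-fold lower (2.35 to 2.69). ID2 and ID3, which block differentiation factors, had log2 ratios of -0.70 and -0.65. CXXC4, FZD8, LAG3, ZBTB20 and ITGB4 complete the 10 lowest panel ratios with DUSP6, each at least 2.21-fold lower. FZD8, a Wnt receptor, was lower in G2M cells (-1.33) by more than in G1 (-0.59) or S cells (-0.62), a difference that was not tested. In the all-gene rows SLC12A2, a chloride cotransporter, stood at 249 CPM with vehicle and 76.6 with estradiol, 3.25-fold lower (2.76 to 3.85). SAT1, which acetylates polyamines, and CCNG2, an unusual cyclin of resting cells, were 2.83-fold and 2.79-fold lower. STK32B, TM4SF1, DUSP6, TSC22D1 and SMAD3 were between 2.17-fold and 2.41-fold lower.

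**Figure D2:**
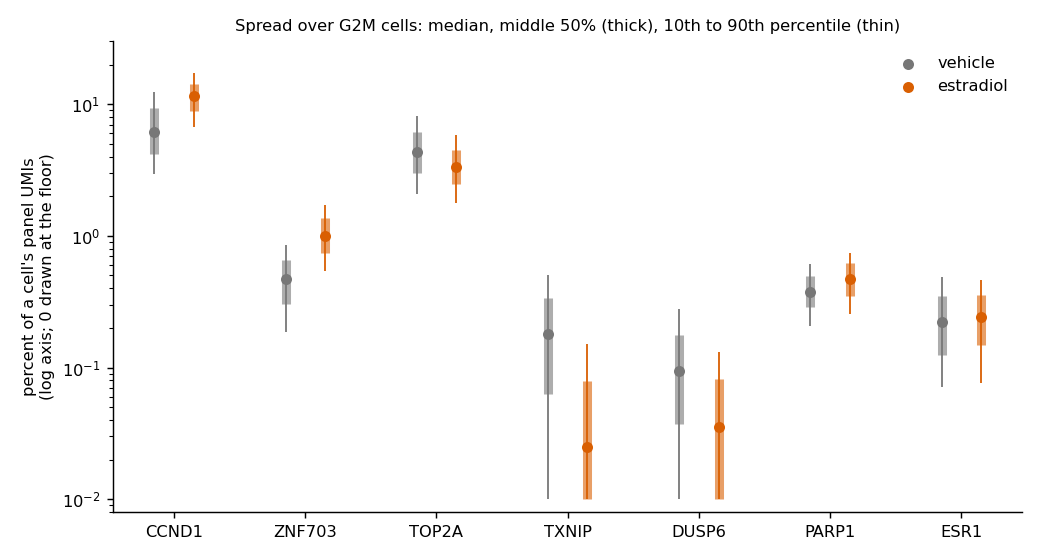
Share of a G2M cell's panel UMIs taken by 7 genes (percent, log axis, 0 drawn at the floor), with the median as a point, the middle 50% of cells as a thick bar and the 10th to 90th percentile as a thin line. For ZNF703 the middle 50% of vehicle cells (grey) and of estradiol cells (orange) do not overlap, and for the other 6 genes they do.

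Growth factor signalling genes past the mark lay on both sides. Counts of members past the mark, here and in the lists below, are read against the shares of all measured genes. These were 2.94% upward and 9.88% downward in the panel, and 2.81% and 4.72% in the all-gene rows. Of 24 measured panel members, RET and FGFR3 were past the mark upward, and DUSP6, ERBB3, ERBB2, FGFR4 and ERRFI1 downward. Under median-of-ratios scaling 2 of the 24 were past it upward and 3 downward. ERBB2, FGFR4 and ERRFI1 are outside the naming rule and were named after their values were seen. DUSP6, the phosphatase that switches off ERK, stood at 1225 CPM with vehicle and 554 with estradiol, 2.21-fold lower (2.11 to 2.32). ERBB3, a neuregulin receptor, had 13987 and 5630 UMIs and was 1.77-fold lower (1.71 to 1.82). FGFR1, a gene with high counts here, had a log2 ratio of -0.10, which becomes 0.01 under median-of-ratios scaling, so no direction can be given.

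Of 19 measured G1 regulators in the panel, CCND1 was past the mark upward and CDKN2B, CDK6 and CDKN1A downward, with a list median of 0.03. Of all measured panel genes 2.94% were past it upward and 9.88% downward. Under median-of-ratios scaling 3 of the 19 were upward and 2 downward, and CDKN1A fell short of the mark. CDKN1A, the inhibitor p21, stood at 1673 CPM with vehicle and 1095 with estradiol, 1.53-fold lower (1.48 to 1.58). CDKN2B, an inhibitor of CDK4 and CDK6, was 1.74-fold lower (1.55 to 1.96), and CDK6 itself 1.73-fold lower (1.59 to 1.89). CDKN1B, the inhibitor p27, stood at 2816 CPM with vehicle and 2082 with estradiol, 1.35-fold lower. Cyclin D1 and these inhibitors thus lay on opposite sides in cells called G2M.

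Of 9 measured p53 targets in the panel, PMAIP1 was past the mark upward, and BTG2 and CDKN1A downward. Under median-of-ratios scaling 2 of the 9 were upward and 1 downward, without CDKN1A. In the all-gene rows 8 of 10 lay below 0, with a median of -0.47; BAX was past the mark upward, and BTG2 and RRM2B downward. BAX, another pro-apoptotic gene of the BCL2 family, was 1.88-fold higher (1.27 to 2.81). BTG2, an antiproliferative gene, was 2.74-fold lower (1.89 to 4.06), and RRM2B, a ribonucleotide reductase subunit, 2.07-fold lower (1.45 to 3.00). Of 16 immediate-early genes in the panel, EGR3 and MYC were upward, and DUSP6, BTG2, FOSL2 and FOS downward. Among all measured panel genes 2.94% were upward and 9.88% downward. The panel median of the immediate-early list was -0.47. In the all-gene rows 2 of its 19 measured members were upward and 7 downward, with a median of -0.21. Of all measured all-gene genes 2.81% were upward and 4.72% downward. FOSL2, an immediate-early gene, is also outside the naming rule. NR4A1, an orphan nuclear receptor of this class, had a log2 ratio of 0.25 (0.03 to 0.47) in G2M cells, -0.54 in G1 and -0.52 in S cells. Within clusters 0, 3, 4 and 7 its ratios were -0.38, 0.48, 0.84 and -0.84, so the G2M cells did not share a direction.

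Mitotic genes lay mostly below 0, nearly all of them short of the mark. The 5 lists of mitotic genes had 125 measured members in the all-gene rows, of which 98 lay below 0 on the log2 scale, with a median of -0.15 against -0.03 for all measured genes. PKMYT1 was past the mark upward, and CDC25C, CENPA and KIF20A downward. In the panel 13 of 16 lay below 0, with a median of -0.21 against -0.11. Under median-of-ratios scaling 93 of the 125 and 9 of the 16 did. Published lists for phase calls hold many of these genes. Of the 73 all-gene members that are not in those lists, 52 lay below 0, with a median of -0.12. In the panel 6 of the 9 members outside those lists lay below 0. Their median of -0.09 was no lower than the -0.11 of all measured panel genes.

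Promoters of mitotic genes are known for sharing short elements, and 4 that hold both elements searched for are shown, of genes named in the results on mitosis. They come from RefSeq, build GRCh38.p14, and run 5′ to 3′ along the gene across its annotated start. TOP2A is at chr17:40417847-40418146 on the minus strand, and CENPA at chr2:26785806-26786105, CDC20 at chr1:43358731-43359030 and CDK1 at chr10:60778081-60778380 on the plus strand. Capitals mark the cell cycle homology region (TTTGAA or TTCGAA) and the CCAAT box (CCAAT), each searched on both strands.
TOP2A: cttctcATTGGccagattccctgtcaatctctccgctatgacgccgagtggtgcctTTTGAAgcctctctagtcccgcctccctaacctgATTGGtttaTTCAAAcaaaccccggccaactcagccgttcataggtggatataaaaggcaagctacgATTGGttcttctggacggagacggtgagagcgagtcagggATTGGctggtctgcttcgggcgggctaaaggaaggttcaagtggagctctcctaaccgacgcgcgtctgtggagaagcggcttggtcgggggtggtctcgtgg
CENPA: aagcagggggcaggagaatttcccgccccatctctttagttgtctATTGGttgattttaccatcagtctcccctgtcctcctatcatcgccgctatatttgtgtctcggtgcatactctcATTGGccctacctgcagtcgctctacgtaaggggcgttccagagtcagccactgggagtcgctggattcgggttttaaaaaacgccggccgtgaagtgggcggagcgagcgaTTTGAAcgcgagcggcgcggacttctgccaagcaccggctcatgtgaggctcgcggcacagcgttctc
CDC20: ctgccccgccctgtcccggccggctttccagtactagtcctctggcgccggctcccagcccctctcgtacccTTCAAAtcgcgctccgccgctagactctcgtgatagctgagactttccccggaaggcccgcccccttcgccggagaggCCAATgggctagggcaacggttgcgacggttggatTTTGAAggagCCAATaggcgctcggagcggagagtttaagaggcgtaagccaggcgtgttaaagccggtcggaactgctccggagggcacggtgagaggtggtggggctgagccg
CDK1: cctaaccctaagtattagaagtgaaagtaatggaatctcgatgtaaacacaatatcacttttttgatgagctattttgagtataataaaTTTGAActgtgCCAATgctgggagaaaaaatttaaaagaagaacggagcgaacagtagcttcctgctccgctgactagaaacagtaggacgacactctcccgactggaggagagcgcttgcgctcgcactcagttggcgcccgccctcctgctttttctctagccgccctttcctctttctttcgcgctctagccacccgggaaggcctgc
The homology region was found in 67 of 107 promoters of measured mitotic genes (62.6%), in 16.6% of all 27305 promoters and in 11.6% of the 5474 promoters of genes measured in the all-gene rows. The CCAAT box was found in 67.3%, 35.7% and 38.9% of the same groups. Neither motif contains the other, and a match describes the letters only. The windows of CCNB1, CDC25C and KIF20A held no homology region, and that of CDC25C no CCAAT box either; CDC25C and KIF20A are 2 of the 3 mitotic genes past the mark downward. The full estrogen response element (GGTCANNNTGACC) was found in 18 of all 27305 promoters (0.0659%) and in 0 of the 5474 promoters of genes measured in the all-gene rows. It was found in 0 of 25 promoters of measured estrogen-induced genes, which at so low a share says nothing about these genes. The windows printed above span 300 bases each, and sites outside the windows were not searched.

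Regulators of mitotic entry did not move as one. CCNB1, cyclin B1, stood at 519 CPM with vehicle and 438 with estradiol, a log2 ratio of -0.24 (-0.36 to -0.13). Its partner CDK1 had -0.27 (-0.39 to -0.15). CDC25C, which activates CDK1, had 153 and 74 UMIs and was 1.75-fold lower (1.32 to 2.34). Of the kinases that inhibit CDK1, WEE1 had -0.46 (-0.63 to -0.30) and PKMYT1 was 1.64-fold higher (1.29 to 2.10), so they lay on opposite sides. CCNA2, cyclin A2, had -0.41 (-0.46 to -0.36) in the panel.

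TOP2A, the topoisomerase that disentangles chromosomes, had 277480 and 152124 panel UMIs and was 1.30-fold lower (1.29 to 1.31). In the all-gene rows its log2 ratio was -0.47 (-0.51 to -0.43). Of kinetochore and checkpoint genes, CENPF, CENPE, BUB1 and NDC80 had -0.33, -0.43, -0.48 and -0.47. CENPA, the centromere histone, had -0.60 in the all-gene rows and -0.47 in the panel. Of the motors, KIF18A had -0.50 and KIF20A -0.61. Others lay near 0, as MKI67, the proliferation antigen, had -0.07 (-0.13 to -0.01) and TUBA1B, a tubulin, 0.01. AURKB, the chromosomal passenger kinase, had 0.40 in the all-gene rows and -0.03 in the panel, which is 0.08 under median-of-ratios scaling, so no direction can be given for it.

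The make-up of the G2M cells differed between the libraries. In the deposited clustering, clusters 0, 3, 4 and 7 held most G2M cells. Cluster 4 held 28.8% of the vehicle cells (26.6 to 31.0) and 20.5% of the estradiol cells (18.3 to 22.9). Cluster 7 held 13.2% and 7.99%, cluster 0 46.2% and 54.8% and cluster 3 8.90% and 13.6%, vehicle first. The mitotic genes took 5.81% and 5.38% of all-gene UMIs in cluster 4, 3.90% and 3.63% in cluster 7, 3.67% and 3.39% in cluster 0 and 2.73% and 2.79% in cluster 3. Clusters 4 and 7, where these transcripts took the higher shares, held a smaller part of the estradiol cells. Within clusters 0, 3, 4 and 7 the median log2 ratio of the mitotic genes was -0.09, 0.03, -0.09 and -0.07. With the same weight for each of these clusters it was -0.06, against -0.15 over all G2M cells. What part the make-up had in the lower mitotic values was not tested.

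Single genes differed in how their cluster values stood to the value over all G2M cells. In clusters 0, 3, 4 and 7 CCNB1 had log2 ratios of 0.05, -0.13, 0.05 and 0.03, none as low as its -0.24 over all G2M cells. CDC20, the activator of the anaphase promoting complex, had 0.29, -0.46, -0.25 and 0.20 there and -0.39 over all. TOP2A lay below 0 in each cluster, at -0.36, -0.21, -0.39 and -0.57, and so did CDC25C, at -1.09, -1.15, -0.37 and -0.95, and WEE1, at -0.61, -0.44, -0.21 and -0.36. Of the genes past the mark in the panel, 24 of 25 higher and 74 of 84 lower genes had 1 direction in all 4 clusters. In the all-gene rows 141 of 190 higher and 236 of 319 lower genes did. These genes were picked by their ratio over the same cells, so part of this agreement is built in.

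**Figure D3:**
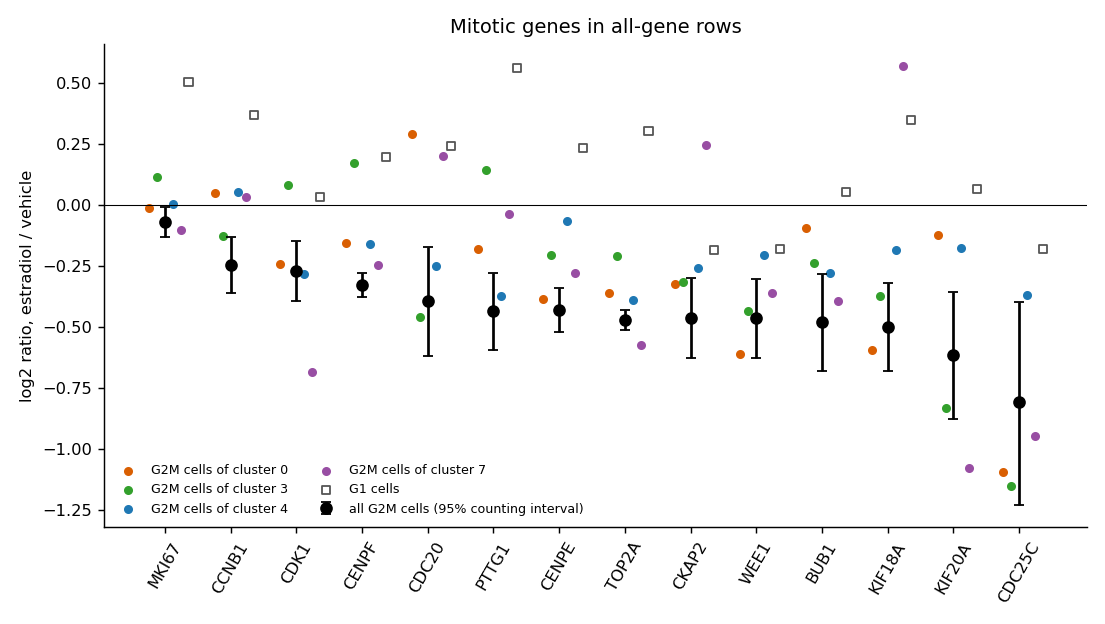
Log2 ratios of estradiol to vehicle of 14 mitotic genes in all-gene rows, for all G2M cells (black, with the 95% counting interval), for the G2M cells of clusters 0, 3, 4 and 7 (coloured points) and for G1 cells (open squares). CCNB1 lies at -0.24 over all G2M cells and between -0.13 and 0.05 within clusters, and TOP2A lies below 0 in all 4.

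In G1 cells mitotic genes lay on the other side, with a median of 0.35, and in S cells at 0.03. A second phase call was made from published lists of S and G2/M genes. It gave G1 for 63.7% of vehicle and 45.3% of estradiol G1 cells, and G2M for 99.5% of G2M cells in both libraries. The phase calls thus agreed less on G1 cells, and unequally so between the libraries. The published lists may share genes with the authors' call, whose genes are not named, so agreement is no independent check. TOP2A in the panel had 0.23 in G1 cells, where it took only 0.265% of the vehicle UMIs, against 4.70% in vehicle G2M cells. PTTG1, securin, had 0.56 in G1, 0.12 in S and -0.44 in G2M cells. CENPA in the panel had 0.08 (-0.44 to 0.58) in G1, 0.17 (-0.22 to 0.55) in S and -0.47 in G2M cells. Its all-gene G1 levels were only 0.666 and 2.16 CPM and the interval ran from -1.11 to 5.16, so no direction can be given there. Whether the phases differ was not tested, as cells are not replicates.

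Genes of DNA replication lay mostly above 0 but short of the mark. In the panel 19 of 20 lay above 0 and 0 passed the mark, with a median of 0.21, and in the all-gene rows 44 of 51, with 0.20. With equal weight for clusters 0, 3, 4 and 7 the medians were 0.13 and 0.09. Under median-of-ratios scaling 2 of the 20 panel genes were past the mark upward, and the panel median was 0.32. Of the 51, 2 were past the mark upward, against 2.81% of all measured genes. They were MCM2, of the replicative helicase, which was 1.51-fold higher (1.12 to 2.04), and DSCC1, which helps load the sliding clamp, 1.59-fold higher (1.14 to 2.21). Within clusters 0, 3, 4 and 7 the all-gene medians were 0.04, 0.31, 0.18 and -0.43, and the panel medians 0.03, 0.26, 0.12 and 0.06. Cluster 7 thus lay below 0 in the all-gene rows only. There it had the fewest UMIs of these clusters, with 115599 over 98 estradiol cells. Published lists for phase calls hold many of these genes as well.

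**Figure D4:**
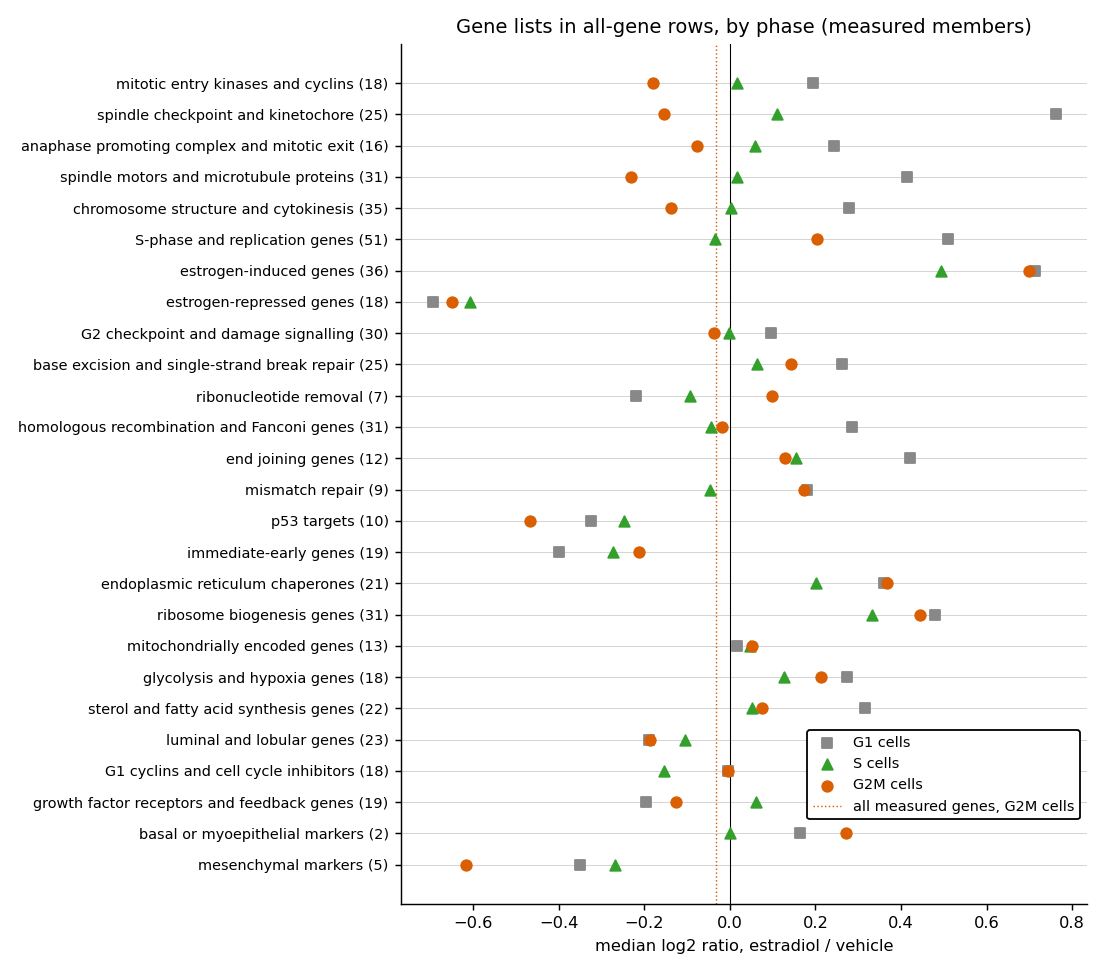
Median log2 ratio of estradiol to vehicle of each gene list in all-gene rows, with its number of measured members in parentheses, for G1 (grey squares), S (green triangles) and G2M cells (orange circles); the dotted line is the median of all measured genes in G2M cells. The 5 mitotic lists lie below that line in G2M cells and above 0 in G1 cells, and the estrogen-induced and estrogen-repressed lists keep their side in each phase.

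Genes for making and folding proteins lay mostly above 0, and a minority passed the mark. Of 31 measured ribosome biogenesis genes 30 lay above 0 and 7 were past the mark upward, with 0 downward and a median of 0.44. NCL, nucleolin, stood at 971 CPM with vehicle and 1459 with estradiol, 1.5-fold higher (1.43 to 1.58), and NOP56, of the particle that methylates ribosomal RNA, was 1.66-fold higher (1.48 to 1.87). BOP1, of the large subunit pathway, was 2.16-fold higher (1.45 to 3.25). Of 21 chaperone genes of the endoplasmic reticulum, 16 lay above 0 and 5 below; CALR, HSPA5 and HYOU1 were past the mark upward and HERPUD1 downward, with a median of 0.37. HSPA5, the chaperone BiP, stood at 117 CPM with vehicle and 186 with estradiol, 1.59-fold higher (1.38 to 1.84). Both lists lay above 0 in G1 and S cells too.

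Of 18 glycolysis and hypoxia genes in the all-gene rows ENO2 was past the mark upward and VEGFA downward, with a median of 0.21, and GAPDH was 1.37-fold higher (1.31 to 1.42). The 3 members measured in the panel had a median of -0.09. It becomes 0.02 under median-of-ratios scaling, so no direction can be given for the panel. The 13 genes of the mitochondrial genome and the 22 of sterol and fatty acid synthesis had medians of 0.05 and 0.07, with 0 past the mark.

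Of 23 luminal and lobular genes, KRT8 and TFAP2C were past the mark upward and ID2 downward, with a median of -0.19. The keratin KRT8 stood at 619 CPM with vehicle and 1075 with estradiol, 1.74-fold higher (1.63 to 1.85), and KRT19 was 1.46-fold higher (1.40 to 1.52). TFAP2C, a luminal transcription factor, was 2.01-fold higher (1.66 to 2.44). Of the 5 measured mesenchymal markers CDH2 (N-cadherin), TWIST1 and COL1A1 were past the mark downward, at -1.38, -0.78 and -0.62. KRT8, TUBA1B and GAPDH have close copies in the genome, and the sources used here do not say how shared reads were counted, so their values are uncertain.

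Counts of DNA repair genes past the mark are read against the shares of all measured all-gene genes, 2.81% upward and 4.72% downward. In base excision and single-strand break repair, 19 of 25 all-gene members lay above 0, with a median of 0.14, and 2 of the 25, APEX2 and POLD2, passed the mark upward. APEX2, an endonuclease for abasic sites, had 41 and 66 UMIs and was 1.90-fold higher (1.27 to 2.88); POLD2, of polymerase delta, was 1.59-fold higher (1.37 to 1.85). PARP1, which senses strand breaks, stood at 3976 CPM with vehicle and 4840 with estradiol, 1.22-fold higher (1.20 to 1.24), and lay above 0 in all 4 clusters. PARP2 was 1.14-fold higher (1.08 to 1.20). RNASEH2A, the catalytic subunit of the enzyme that cuts at ribonucleotides in DNA, had 56 and 88 UMIs and was 1.86-fold higher (1.31 to 2.64).

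Of 29 homologous recombination and Fanconi genes in the panel 0 passed the mark, with a median of 0.00. In the all-gene rows FANCL and FAN1 passed it downward among 31. Of 12 end joining genes MAD2L2, of the shieldin complex, passed it upward with a log2 ratio of 0.64 (0.30 to 0.99), and of 9 mismatch repair genes 0 did. End joining and mismatch repair had all-gene medians of 0.13 and 0.17. MDC1, the adaptor at DNA breaks that the series title names, stood at 992 CPM with vehicle and 893 with estradiol, 1.11-fold lower (1.07 to 1.16). Its log2 ratio of -0.15 lay near the panel median of -0.11, and was -0.19, 0.17, -0.15 and -0.10 in clusters 0, 3, 4 and 7. Of 19 checkpoint genes in the panel 0 passed the mark, and 1 did, upward, under median-of-ratios scaling. SFN, a 14-3-3 protein that can hold cyclin B in the cytoplasm, was 1.44-fold higher (1.37 to 1.5) in the panel and 1.89-fold higher (1.5 to 2.40) in the all-gene rows.

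The repair rows hold 9 hairpins with 61 positions each, and a UMI at a position tells where the captured strand ends. Abasic carries a site without a base, Uracil1, Uracil2 and Uracil3 are named for uracil, riboG for a ribonucleotide, GU, CI and TI by letters, and Normal serves as the background. G2M cells gave 1836114 repair UMIs with vehicle and 1798295 with estradiol. Of 549 positions 329 had at least 500 UMIs, and 0 of these (0%) were past the mark in either direction. Their log2 ratios lay between -0.55 and 0.48, 306 of them within 0.25 of 0. The lowest was riboG-53 with 409 and 273 UMIs, and the highest Uracil1-51 with 492 and 671. Uracil2-21, with 2448 and 3185 UMIs, had 0.41 in G2M cells and 0.84 in G1 cells. GU-38, Uracil1-35, GU-36 and Uracil2-34 had -0.49, -0.44, -0.37 and -0.35, and TI-23, Uracil2-54 and CI-15 had 0.33, 0.27 and 0.26.

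The share of a hairpin's UMIs at positions 44 to 50, called its window, was compared next. The Abasic window held 58.8% (58.5 to 59.1) with vehicle and 54.7% (54.4 to 55.0) with estradiol, from 114100 and 105923 UMIs. It held 67.0% and 60.9% in G1 cells and 65.8% and 58.7% in S cells, so it was lower with estradiol in each phase. Within G2M cells it held 61.9% and 58.2% in cluster 0, 43.0% and 40.5% in cluster 3, 56.3% and 53% in cluster 4 and 66.8% and 66.6% in cluster 7. Position 46, the one with most Abasic UMIs, had a log2 ratio of -0.17 (-0.19 to -0.15) as a share of all repair UMIs.

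The riboG hairpin pointed one way in G2M cells and the other in G1 cells. Its G2M window held 7.52% (7.39 to 7.64) with vehicle and 6.47% (6.35 to 6.59) with estradiol, a log2 ratio of -0.22 (-0.25 to -0.18). In G1 cells it held 5.13% and 5.69%, and in S cells 5.54% and 5.67%. The vehicle G2M cells thus stood highest, and the estradiol G2M cells still stood above the G1 and S cells of either library. Position 45 had 5640 and 4474 UMIs. Within G2M cells the window held 7.15% and 5.89% in cluster 0, 9.15% and 7.43% in cluster 3, 8.10% and 7.55% in cluster 4 and 6.13% and 5.52% in cluster 7, lower with estradiol in each. In cluster 7 the counting interval of the log2 ratio, -0.301 to 0.0019, held 0. Of 7 measured genes for ribonucleotide removal in the all-gene rows, 5 lay above 0 and RNASEH2A alone passed the mark, upward. Their median was 0.10, and -0.02 with equal weight to each cell. How these transcripts bear on the riboG window was not tested. Repair depth also differed between the libraries, as given above, and its part in the riboG shares was not tested.

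Uracil1 held 25.6% in both libraries and Uracil2 14.2% and 13.9%. Within clusters 0, 3, 4 and 7 the log2 ratios of the window were -0.05, 0.03, -0.06 and -0.05 for Uracil1 and -0.06, -0.07, -0.11 and -0.04 for Uracil2. For both hairpins the counting intervals held 0 in clusters 3 and 7, and both were lower with estradiol in clusters 0 and 4. With equal weight for clusters 0, 3, 4 and 7 the log2 ratios were -0.03 and -0.07, against 0.00 and -0.02 over all G2M cells. Uracil3, with the fewest UMIs (18812 and 18584), held 9.45% (9.03 to 9.87) and 10.2% (9.74 to 10.6). By cluster Uracil3 held 11.1% and 10.9% in cluster 0, 12.7% and 12% in cluster 3, 6.72% and 7.65% in cluster 4 and 4.72% and 4.48% in cluster 7. In each cluster the counting interval of its log2 ratio held 0, so no direction can be given there. With equal weights its log2 ratio was -0.01 in place of 0.11. GU held 7.38% (7.29 to 7.46) with vehicle and 8.0% (7.91 to 8.09) with estradiol over all G2M cells. By cluster GU held 8.10% and 8.44% in cluster 0, 9.72% and 10.1% in cluster 3, 6.47% and 6.32% in cluster 4 and 4.56% and 4.54% in cluster 7, so the difference was not seen in each. TI held 0.248% and 0.208%, CI 0.127% and 0.120%, and Normal 0.123% and 0.110%, so CI lay near the background and TI a little above it.

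As shares of all repair UMIs the hairpins were similar between the libraries. Abasic took 6.21% and 5.89%, riboG 9.08% and 8.97%, GU 19.3% and 18.9%, and TI 23.6% and 24.2%. Normal took 14.3% and 14.2%, and its position with most UMIs was 20, while CI took 11.3% and 11.2% and had most UMIs at position 9.

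**Figure D5:**
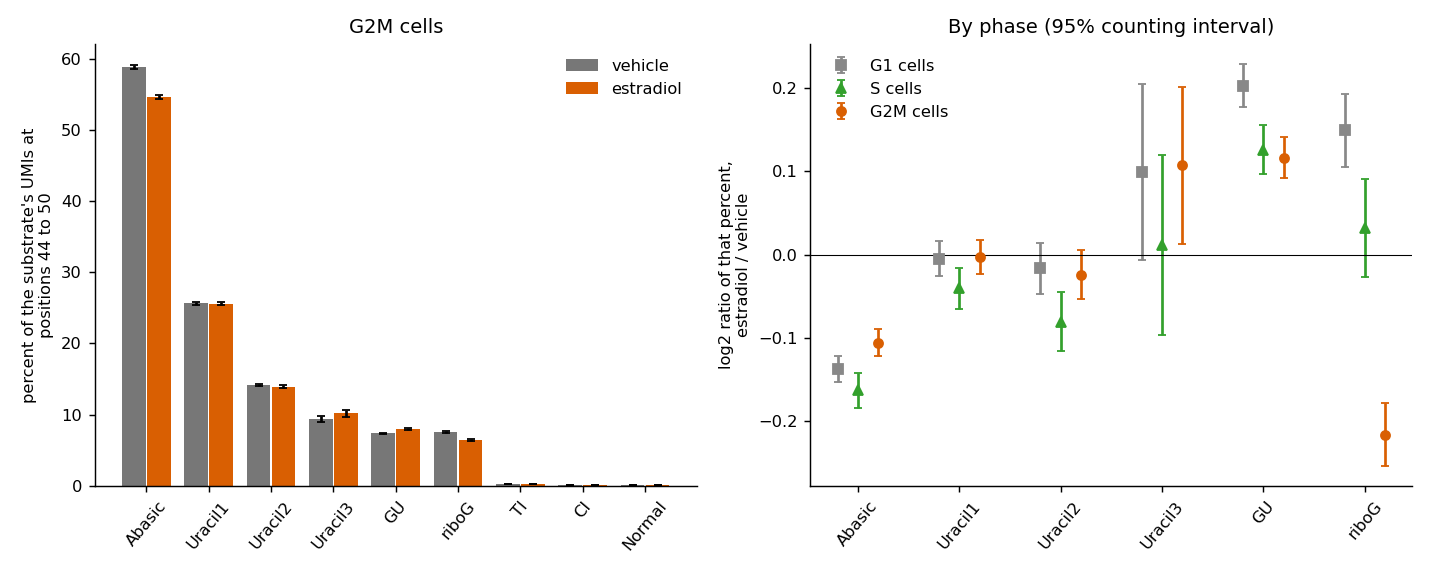
Left, share of each hairpin's UMIs at positions 44 to 50 in G2M cells (percent, bars from 0, 95% binomial intervals), with vehicle in grey and estradiol in orange. Right, log2 ratio of that share in G1, S and G2M cells for the 6 hairpins with most window signal, with 95% counting intervals, where riboG lies below 0 in G2M cells and above 0 in G1 cells.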

How the data were processed

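Transcripts and DNA repair were read in single MM134 cells. The submitters' processing notes name UMI-tools 0.5.3, Bowtie2 2.3.2, SAMtools, cutadapt 1.8.3, Cell Ranger 3.0.2 and hg38 without roles. The authors deposited natural log values per cell in 3 blocks of rows (33538 all-gene, 1253 panel and 549 repair rows), along with the UMI count of each cell per block, a phase, a cluster and the mitochondrial percent. The sources used here do not say how the all-gene rows were sequenced. For each value the count, scaled to 10000 UMIs per cell and block and raised by 1, had been put on the natural log scale. Counts were recovered by undoing this, and all 13353077 values above 0 came out whole within 1e-06. The design had assumed counts, and the recovered counts were used.

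UMIs were summed over the G2M cells of a library and divided by their block total (python 3.11.15, numpy 2.4.6, scipy 1.17.1, pandas 2.3.3). Ratios have exact conditional 95% intervals (Clopper-Pearson), which treat UMIs as independent. No cell was left out and no doublet caller was run. The scripts were tested on simulated data. Repair positions needed 500 UMIs.

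Named genes are MDC1, ESR1, PGR, PARP1 and PARP2. Each block adds the 10 highest and 10 lowest ratios (at least 200 UMIs, 20 CPM in a library, interval without 1) and the 6 genes each way that differ most between G2M and pooled G1 and S cells. Each of the 27 lists adds up to 4 members by ratio and 2 by UMIs. For repair, each hairpin and 5 positions each way are named. The members and lists were chosen with earlier results of these data known. Not every gene that the rule takes is printed.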

Additional observations from a re-analysis of the deposited data

Results flagged for a closer look

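These results lay on opposite sides of 0 in G2M cells and in the G1 cells, or the pooled G1 and S cells, that they were set against. The difference was not tested, since each treatment has 1 library. S cells made up 23.67% of the pooled vehicle cells and 45.65% of the pooled estradiol cells, so the pooled ratio also moves with the mix of phases. The phase calls also agreed less on the G1 group than on the G2M group, as given above. Of the 21 gene results, 20 were opposite in G1 cells alone, 12 in S cells alone and 12 in both. HMGB2 was opposite in neither.

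The values are log2 ratios of estradiol to vehicle in G2M cells minus those in the pooled G1 and S cells. Opposite in both phases were these all-gene results: CCNB1 with -0.657, CDC20 with -1.14, CIP2A with -1.07, KNL1 with -1.1, MKI67 with -0.797, NDC80 with -1.65, PTTG1 with -0.71, SGO1 with -1.11 and SKA1 with -1.82. So were AGPS, an enzyme of ether lipid synthesis, with 0.859, and in the panel CENPA with -0.954 and NR4A1 with 0.766. For CCNB1, CDC20, CIP2A, KNL1 and NDC80 and for CENPA in the panel the counting interval of the log2 ratio held 0 in G1 cells and in S cells, so the opposite sign is not firm. In G1 cells that of NDC80, for example, ran from -0.61 to 2.92. CIP2A in S cells had 0.00, with an interval from -0.40 to 0.41. For AGPS, MKI67, PTTG1, SGO1 and SKA1 the interval left out 0 in G1 cells only, and for NR4A1 in both.

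Opposite in G1 but not in S cells were CDK1 with -0.777, CENPF with -0.7, KIF18A with -0.816 and TOP2A with -0.933 in the all-gene rows. In the panel TOP2A had -0.822, CCNA2 -0.929, TTK -0.786 and ITGA2 0.911. For CDK1, CENPF and KIF18A the counting interval of the log2 ratio in G1 cells held 0, so the opposite sign is not firm. That of CDK1 ran from -0.55 to 0.60. For TOP2A in both blocks and for CCNA2, TTK and ITGA2 the interval in G1 cells left out 0. HMGB2 had -0.703.

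The riboG window had a log2 ratio in G2M cells minus that in G1 cells of -0.366.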

How the results depend on the processing

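Of 194 named gene results, 11 had the opposite sign with equal weight to each cluster, 3 with median-of-ratios scaling, 2 with equal weight to each cell and 1 each without the 10 most abundant genes or without the 5% of cells with most UMIs. Of the 91 past 1.5-fold, 0 did under any of these. Median-of-ratios scaling gave 41 higher panel genes. A minimum of 400 UMIs gave 53 lower panel genes, and 43 higher and 62 lower all-gene genes, where a minimum of 50 UMIs gave 343 and 605; fewer or more genes are then measured. With equal weight to each cluster the window log2 ratios were -0.0631 for Abasic, 0.0258 for GU, -0.0322 for Uracil1, -0.0737 for Uracil2 and -0.00666 for Uracil3. The log2 ratios of hairpin shares were then -0.0255 for CI, -0.000549 for GU, -0.0241 for Normal and -0.00512 for Uracil1. The window's top position alone gave 0.189 for CI, 0.152 for GU, -0.0349 for Uracil1 and -0.285 for riboG. Of repair positions, 1 was past 1.5-fold downward with equal weight to each cell, 1 with equal weight to each cluster, 1 without the 5% of cells with most UMIs and 1 at a minimum of 200 UMIs, where 1 was also upward. The cause of the shifts in repair values was not tested. No paired analysis was possible because each treatment has 1 library per assay. Depth limits single genes: at 100 UMIs a ratio near 1.5-fold has a wide counting interval, and the interval left out 1 for 317 of the 319 lower all-gene genes but lay wholly past 1.5-fold for 42 of them, for 37 of the 190 higher ones, and for 20 of 25 higher and 42 of 84 lower panel genes.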
